A study of Rattus norvegicus with 4 samples.

Results

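The genes described here encode enzymes that deal with reactive, lipid-soluble or aldehyde-bearing molecules: glutathione transferases, aldehyde dehydrogenases, aldo-keto reductases, UDP-glucuronosyltransferases, sulfotransferases, epoxide hydrolases and flavin monooxygenases. They were taken by gene name from the deposited expression table, with Aldh3a1 left out by the rule. This gave 90 of the 32623 genes in the table. The libraries come from TSPCs, stem and progenitor cells of rat tendon, and hold their RNA as sequenced reads counted per gene. The control group was 2 libraries of TSPCs given DMSO, the solvent, and the treated group was 2 libraries of TSPCs given U0126, which blocks MEK, the kinase step before ERK. The comparison asks which transcripts of these enzymes change under the inhibitor. The labels give no genetic change in either group, nor the dose or the exposure time of U0126, nor the animal, culture or day behind each library, so p-values measure the spread between these libraries, which may be technical.

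Enzymes of this kind work in steps. Monooxygenases, dehydrogenases and reductases alter a functional group, epoxide hydrolases open strained rings with water, and transferases attach glutathione, glucuronic acid or sulfate so that the product dissolves and can be pumped out. They are best known from liver, but fibroblasts also carry them, and several act on the body's own molecules. Some Aldh1a enzymes make retinoic acid, aldose reductase makes sorbitol, and some Akr1c enzymes interconvert steroids.

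Total counts lay between 36888913 and 42785190 per library, and 14023 genes passed the filter on low counts and were tested. The labelled cell type was checked against 14 tendon progenitor markers, all with counts; their summed level was 37650 and 40910 CPM (counts scaled to a common library size by TMM, times 1e6) in the controls and 41560 and 44550 CPM with U0126. Of 13 tested, 6 rose and 2 fell, among them Dcn (2.78-fold higher), Fmod (2.41-fold higher) and Tnc (2.91-fold lower), and Col1a1 carried much of the sum (21073 CPM in control replicate 1). Tnmd, found in mature tendon, had at most 5 counts in a library. Of 8 hepatocyte markers, 7 including albumin (Alb) had no count, and the 8 summed to at most 0.264 CPM in a library. Summed levels of 9 macrophage and leukocyte markers were 13.2 to 14.1 CPM in the controls and 11.2 to 11.6 CPM with U0126, with Ptprc at 0. Cd14, not called, carried most of that sum (12.3 and 11.9 CPM against 10.9 and 10.7 CPM). Adgre1 was called lower, with 23 and 16 control counts and 2 and 0 under U0126. Endothelial (6 markers in the table), epithelial (6) and adipocyte (5) markers summed to at most 0.791, 3.84 and 0.395 CPM. Among the epithelial markers Krt18 was called higher, with 0 counts in both controls and 10 in each U0126 library. Krt18 could be tested because of its treated level, and Adgre1 because of its control level. Lists of other cell types also moved with the treatment: 4 of 7 skeletal muscle markers fell (summed 201.6 and 223 CPM in the controls, 84.0 and 125.8 CPM with U0126), and 2 of 6 Schwann and neural markers rose (13.5 and 8.66 CPM against 44.5 and 26.9 CPM), with Pax7 and Sox10 at 0. Acta1 carried most of the muscle sum, at 189 and 214 CPM in the controls and 80.7 and 122 CPM with U0126. Myog, not tested, had 6 and 0 control counts and 25 and 8 under U0126. S100b carried most of the Schwann and neural sum (12.7 and 7.17 CPM against 41.0 and 24.6 CPM). Of 6 mural cell markers, 2 rose and 2 fell. The mitochondrial share of counts was higher with U0126 too, at 5.64% and 4.82% against 3.48% and 2.98% in the controls. The part of such cells and of this share in the results below was not tested, and in bulk RNA a change in the number of cells of a type cannot be told apart from a change in RNA per cell.

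Of the 90 genes, 58 had at least 1 count, 48 passed the filter and 32 had no count in any library. Levels per gene length, as the deposited TPM, ranged widely among the 48. The mean over the 4 libraries was at least 100 TPM for 8 genes, at least 10 TPM for 27 and at least 1 TPM for 42. Most of the expressed transcript came from few genes: Akr1a1, an aldehyde reductase, at 971 TPM, Gstp1, the pi class glutathione transferase, at 592 TPM, Gsta1 (alpha class) at 298 TPM, Gstm7 (mu class) at 271 TPM, and Akr1b1, aldose reductase, at 181 TPM. These 5 made up 68.7% of the summed TPM of the 90 genes. In the same unit, Aldh2, the mitochondrial acetaldehyde dehydrogenase, followed with 169 TPM, and the microsomal epoxide hydrolase Ephx1 stood at 80.6 TPM. Conjugation by sulfate and glucuronic acid was sparsely represented, with Ugt1a5 at 12.5 TPM and Sult5a1 at 6.62 TPM as the most abundant of their classes.

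**Figure D1:**
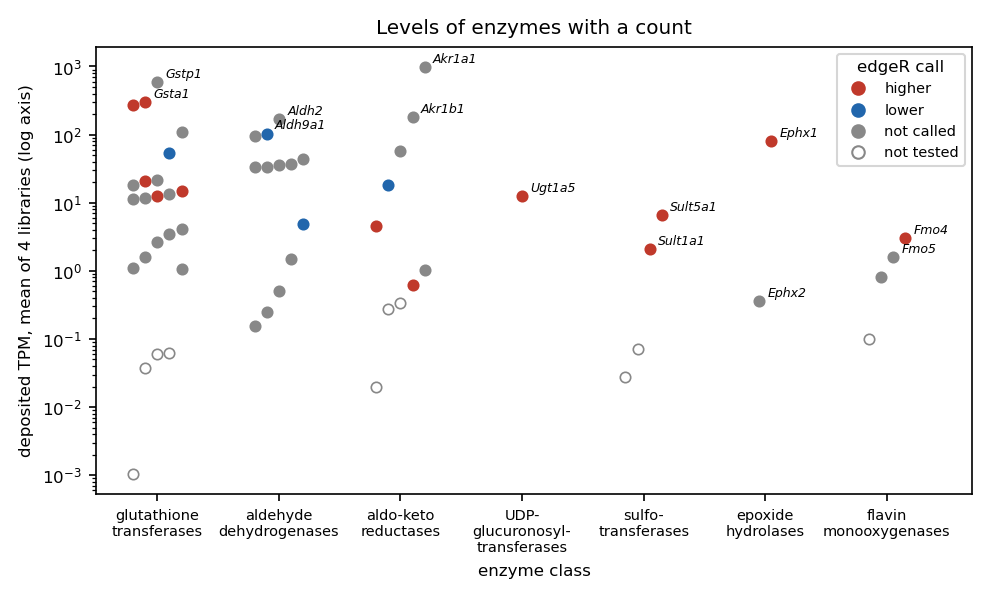
Deposited TPM of enzyme genes with a nonzero TPM, as the mean of the 4 libraries on a log axis, by enzyme class, with 1 point per gene coloured by its edgeR call for U0126 against control. Genes above 100 TPM are found among the glutathione transferases, aldehyde dehydrogenases and aldo-keto reductases, with Akr1a1 at 971 TPM the highest.

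With U0126, 13 of the 48 tested enzyme genes rose and 4 fell, in the quasi-likelihood test of edgeR, with p adjusted by Benjamini-Hochberg over all genes tested and a threshold of 0.05. That is 35.4% of the tested enzymes called, where 19.9% of all tested genes were called. Higher calls made up 27.1% of the tested enzymes against 8.41% of all tested genes, and lower calls 8.33% against 11.5%. The median log2 fold change was 0.28 over the 48 and 0.015 over all tested genes. Both U0126 libraries lay above both controls for 25 of the 48 and below both for 11. Over all tested genes the groups did not overlap for 62.8%, with 31.8% above and 31% below, so the first share is above and the second under that of all genes, with no test of either. Changes of at least 2-fold included the rises of Akr1c14, Sult1a1, Fmo4 and Mgst1 and the fall of Akr1b10. Of the 48, 44 reached the filter's level in both groups; Akr1c14, Aldh8a1 and Ephx2 reached it in both U0126 libraries but not in both controls, and Aldh1a3 in 1 library of each group. The 48 are therefore not all the enzymes, and Akr1c14 could be tested because of its level in the treated libraries. Fewer calls were made with a control left out: 5 enzymes were called without control replicate 1 and 5 without control replicate 2, against 23 without U0126 replicate 2. Over all genes the share called went down to 6.32% and 6.24% without those controls and up to 32.1% without U0126 replicate 2. Akr1b10, Gsta1 and Mgst1 were called in all 11 alternatives.

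**Figure D2:**
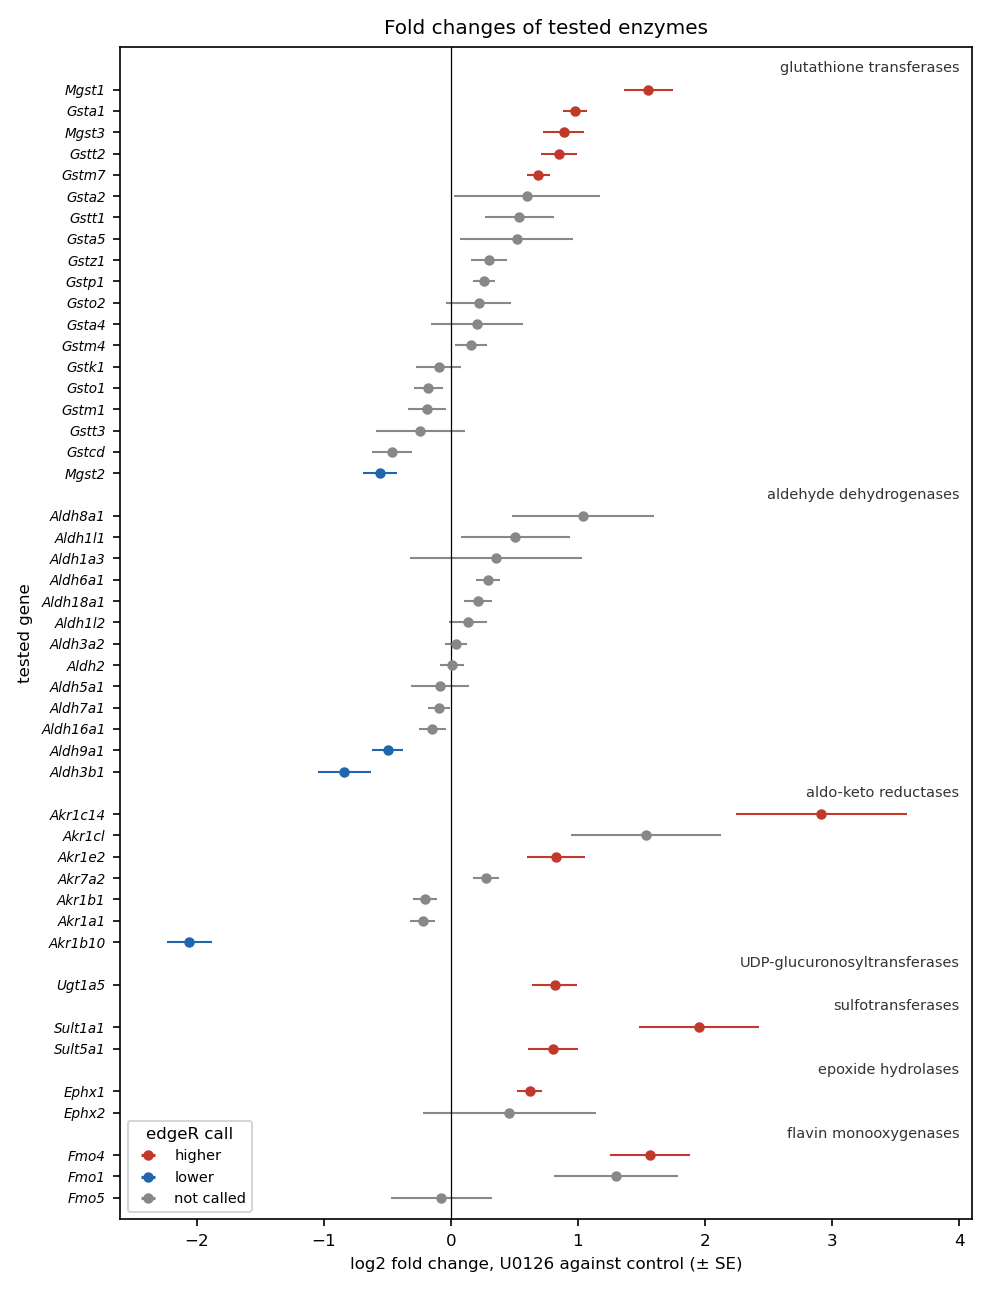
Log2 fold change of U0126 against control with its standard error for tested enzyme genes, by class and by size within a class; colour gives the edgeR call. The rises reach 2.92 (Akr1c14), and Akr1b10 is the lowest at -2.06.

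Among the glutathione transferases, which join glutathione to electrophiles, 5 of 19 tested rose and 1 fell (26.3% and 5.26%), and their median log2 fold change was 0.26. Gsta1, an alpha class enzyme that also reduces lipid hydroperoxides, was at 110 and 102 CPM in the controls and 217 and 201 CPM with U0126. Both treated libraries stood well above both controls, at 1.97-fold (log2 fold change 0.97 ± 0.09 SE; edgeR adjusted p = 7.95e-04). It lies on chromosome 9 (27368272 to 27452902, rn6, minus strand), where the span of Gsta3, which had 4 counts in all, overlaps it on the other strand. Gstm7, a mu class enzyme, was at 81.0 and 88.4 CPM in the controls and at 137 and 136 CPM with U0126 (1.61-fold). Its annotated span on chromosome 2 (210720704 to 210782856, minus strand) holds the sparsely counted mu genes Gstm3, Gstm6 and a row named Gstm6l. Gstt2, a theta class enzyme, was at 6.88 and 7.40 CPM against 12.7 and 13.1 CPM (1.80-fold). Near-identical neighbours can share reads, and how the counting treated them is not given in the sources used here, so values of single alpha, mu and theta members are uncertain to that extent.

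The promoter windows of Gsta1 and Gstm7 are printed with that of Gstp1, since these are the 3 most abundant glutathione transferases and each window holds the letters of the antioxidant response element core. The sequences are from RefSeq (GRCr8), 250 bases before to 50 after the annotated start, and were found for 69 of the 90 genes by symbol. Capitals mark TGACNNNGC (antioxidant response element core, the kind of site that NRF2 binds), TGANTCA (AP-1 site) or GCGTG (xenobiotic response element core, the kind of site that the aryl hydrocarbon receptor binds), searched on both strands; in Gstp1 the first pair of motifs overlap. They were chosen for printing after their values were seen.
Gsta1 (chr9:31216483-31216782, minus strand): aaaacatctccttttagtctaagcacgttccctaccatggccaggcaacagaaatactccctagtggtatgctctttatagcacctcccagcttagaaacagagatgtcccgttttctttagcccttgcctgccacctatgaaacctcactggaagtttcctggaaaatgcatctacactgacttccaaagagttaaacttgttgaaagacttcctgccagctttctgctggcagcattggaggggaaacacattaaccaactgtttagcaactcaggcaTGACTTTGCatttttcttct
Gstm7 (chr2:198260270-198260569, minus strand): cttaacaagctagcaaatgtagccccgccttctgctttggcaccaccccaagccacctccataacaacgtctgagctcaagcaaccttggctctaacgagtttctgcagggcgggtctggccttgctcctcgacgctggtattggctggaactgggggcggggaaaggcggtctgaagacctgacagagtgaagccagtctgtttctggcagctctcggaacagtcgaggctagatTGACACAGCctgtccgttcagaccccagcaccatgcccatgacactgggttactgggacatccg
Gstp1 (chr1:210769656-210769955, minus strand): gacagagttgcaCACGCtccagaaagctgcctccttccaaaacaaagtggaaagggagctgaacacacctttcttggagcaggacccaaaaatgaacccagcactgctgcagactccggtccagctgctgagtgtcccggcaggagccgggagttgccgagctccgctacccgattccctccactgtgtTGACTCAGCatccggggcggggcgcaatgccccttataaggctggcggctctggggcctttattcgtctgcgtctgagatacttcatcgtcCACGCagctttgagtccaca
Over the 69 enzymes with a window, TGACNNNGC was present in 10 (14.5%), TGANTCA in 5 (7.25%) and GCGTG in 21 (30.4%), and the shares over 27457 promoters of the same length were 12.2%, 7.33% and 31.1%. Over the 36 of them that were tested the counts were 8 (22.2%), 3 (8.33%) and 13 (36.1%), and over the other 33 they were 2 (6.06%), 2 (6.06%) and 8 (24.2%). Among the 9 genes that rose and had a window, the letters of TGACNNNGC were in 2 (Gsta1 and Gstm7), TGANTCA in 1 (Mgst1) and GCGTG in 1 (Mgst3). Over the 12 called genes with a window, which include those that fell, the counts were 3 (25%), 1 (8.33%) and 3 (25%). Aldh9a1, which fell, held both TGACNNNGC and GCGTG, and Akr1b10, which also fell, held GCGTG. Windows were matched by symbol alone, so both rows named Sult1c2 have the same window. The windows of Aldh1l1 and Sult6b1 lie on the other strand from the deposited annotation. A motif match describes letters in its window and not a bound site.

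Gstp1 itself, on chromosome 1 (219291679 to 219294147, minus strand), was at 233 and 235 CPM in the controls and 290 and 272 CPM with U0126. Its groups did not overlap, but the difference of 1.20-fold did not pass (edgeR adjusted p = 0.0777), and it passed without U0126 replicate 2 (0.0264, the lowest over its alternatives, where it went up to 0.393). Gsto1, which reduces dehydroascorbate, had overlapping groups at 62.0 and 54.7 against 48.2 and 55.1 CPM; its annotated span overlaps that of Gsto2 on the same strand. Gstz1, the maleylacetoacetate isomerase of tyrosine breakdown, was at 12.0 and 10.4 against 13.8 and 13.6 CPM (edgeR adjusted p = 0.185). Gstm1, Gstm4, Gstk1, Gstt1, Gstt3, Gsta2, Gsta4, Gsta5 and Gsto2 did not pass either, with log2 fold changes from -0.24 (Gstt3) to 0.60 (Gsta2). Gstcd, named for a transferase-like C-terminal domain, was at 7.87 and 8.18 against 5.69 and 5.94 CPM and missed the threshold (edgeR adjusted p = 0.0834).

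All 3 microsomal members, which sit in membranes and belong to a family unrelated in fold to the soluble enzymes, were called, 2 up and 1 down. Over all tested genes 19.9% were called, and the difference from that share was not tested on these 3 genes. Mgst1, which conjugates electrophiles and reduces lipid peroxides in the endoplasmic reticulum and the outer mitochondrial membrane, was at 4.56 and 3.77 CPM in the controls and 13.6 and 10.9 CPM with U0126. The treated libraries were far above the controls (2.94-fold, log2 fold change 1.55 ± 0.19 SE; edgeR adjusted p = 0.00207). Mgst3 was at 5.19 and 4.76 against 9.23 and 9.17 CPM (1.85-fold). Mgst2, which can also form leukotriene C4, went the other way, from 13.7 and 13.6 CPM to 9.62 and 8.95 CPM (1.47-fold lower). Per gene length, Mgst2 was still the most abundant of the 3 with U0126, at 43.2 and 40.7 TPM against 26.5 and 26.6 TPM for Mgst3 and 24.5 and 19.8 TPM for Mgst1. The calls of Gstt2, Mgst2 and Mgst3 were lost with either control left out (edgeR adjusted p = 0.0974 and 0.0735, 0.212 and 0.219, and 0.0806 and 0.117) and that of Gstm7 without control replicate 1 (0.0591). The lowest values over their alternatives, by edgeR, DESeq2 or limma, were 0.00176, 0.0134, 0.00433 and 1.68e-07. The windows of both risen microsomal genes are given because each holds a motif of a different kind, and no window was found for Mgst2.
Mgst1 (chr4:172760680-172760979, plus strand): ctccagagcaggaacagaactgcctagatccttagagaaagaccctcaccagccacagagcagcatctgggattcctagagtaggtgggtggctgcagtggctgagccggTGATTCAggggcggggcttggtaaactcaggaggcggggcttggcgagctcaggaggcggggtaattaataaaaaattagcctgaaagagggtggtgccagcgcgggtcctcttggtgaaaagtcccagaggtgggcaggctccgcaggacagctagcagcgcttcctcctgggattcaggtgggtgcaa
Mgst3 (chr13:82080246-82080545, minus strand): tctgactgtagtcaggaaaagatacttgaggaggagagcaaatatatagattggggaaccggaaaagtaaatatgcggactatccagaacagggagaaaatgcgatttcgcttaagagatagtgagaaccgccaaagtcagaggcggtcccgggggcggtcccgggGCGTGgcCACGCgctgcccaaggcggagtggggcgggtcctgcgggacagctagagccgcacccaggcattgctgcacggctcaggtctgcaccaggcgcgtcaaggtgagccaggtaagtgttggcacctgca

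The aldehyde dehydrogenases, which oxidise aldehydes to acids, held no gene that rose and 2 of 13 that fell. Called genes were 15.4% of those tested, where 19.9% of all tested genes were called and 11.5% fell. The median log2 fold change was 0.042 and the median of its absolute value 0.214, against 0.015 and 0.266 over all tested genes; at an unadjusted p under 0.05 edgeR put 1 gene, Aldh6a1, above the controls, and DESeq2 called 0 higher. Aldh9a1, which acts in carnitine synthesis, had raw counts of 6166 and 7110 in the controls against 3790 and 4562 under U0126. Its treated libraries differed from each other but both lay below the controls (1.41-fold lower, log2 fold change -0.50 ± 0.12 SE; edgeR adjusted p = 0.0319). Aldh3b1, which acts on lipid-derived aldehydes, was at 5.67 and 7.58 CPM against 3.66 and 3.76 CPM (1.79-fold lower). Its span overlaps Unc93b1 on the other strand, a gene with 3104 counts in all, and whether the counting used strand is not given in the sources used here. Both calls were lost with either control left out (edgeR adjusted p = 0.151 and 0.224 for Aldh9a1, 0.0768 and 0.307 for Aldh3b1; the lowest over their alternatives were 4.72e-04 and 0.0206).

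The most abundant member was not among those called. Aldh2 was at 170 and 188 CPM in the controls and 178 and 182 CPM with U0126, with overlapping groups and a log2 fold change of 0.01 ± 0.09 SE. Aldh7a1, of lysine breakdown, was at 107 and 103 against 96.1 and 101 CPM. Aldh6a1, of valine breakdown, was at 57.8 and 56.7 against 73.4 and 66.7 CPM; it missed the threshold (edgeR adjusted p = 0.0735) and passed without U0126 replicate 2 (0.0143, the lowest over its alternatives, with 0.410 the highest). Aldh18a1 (proline synthesis), Aldh3a2 (fatty aldehydes), Aldh1l2 (mitochondrial folate), Aldh16a1, Aldh5a1, Aldh1l1, Aldh8a1 and Aldh1a3 did not pass. The Aldh1a genes were close to silent: Aldh1a1, Aldh1a2 and Aldh1a7 had no count in any library, and Aldh1a3 had 6, 16, 16 and 9 counts. A library with 0 counts allows at most between 0.0689 and 0.0829 CPM, by counting error alone.

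The aldo-keto reductases, which reduce aldehydes and ketones with NADPH, were called in both directions: of 7 tested, 2 rose and 1 fell (28.6% and 14.3%). Akr1b10, whose human counterpart reduces retinaldehyde and lipid aldehydes, was at 17.9 and 15.4 CPM in the controls and 4.43 and 3.56 CPM with U0126. The treated libraries agree closely and lie far below the controls (4.16-fold lower, log2 fold change -2.06 ± 0.18 SE; edgeR adjusted p = 5.00e-04). The neighbouring Akr1b1 was at 153 and 139 against 123 and 131 CPM, with groups apart but no call (log2 fold change -0.21 ± 0.09 SE; edgeR adjusted p = 0.176), and Akr1b7, on the other side of Akr1b10, had no count. All 3 lie within 156 kb of chromosome 4 (61706864 to 61862526). The Akr1b10 window is printed as that of the gene with the lowest log2 fold change of the 48; its capitals mark a GCGTG.
Akr1b10 (chr4:64005382-64005681, plus strand): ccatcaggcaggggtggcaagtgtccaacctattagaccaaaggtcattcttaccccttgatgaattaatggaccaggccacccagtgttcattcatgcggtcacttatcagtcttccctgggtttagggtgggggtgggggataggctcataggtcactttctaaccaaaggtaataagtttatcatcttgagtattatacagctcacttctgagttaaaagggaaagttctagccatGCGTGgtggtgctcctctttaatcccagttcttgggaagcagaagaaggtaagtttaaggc

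Akr1a1, the most abundant of all the enzymes, was at 764 and 716 CPM in the controls and 600.3 and 668 CPM with U0126. Its groups did not overlap, but the difference of -0.22 ± 0.10 (log2, SE) did not pass (edgeR adjusted p = 0.159) except without U0126 replicate 2 (0.0356, with 0.564 the highest over the alternatives). Akr7a2, an aldehyde reductase of the aflatoxin aldehyde family, was at 36.9 and 33.8 against 42.9 and 42.8 CPM (edgeR adjusted p = 0.0972).

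The Akr1c cluster on chromosome 17 (69365453 to 69862110) held 10 of the genes, of which 5 had no count and 3 were tested. Akr1c14, the 3-alpha-hydroxysteroid dehydrogenase, had 12 and 4 control counts and 77 and 34 under U0126, or 0.303 and 0.0919 against 2.03 and 0.939 CPM. It was low everywhere and higher in both treated libraries (7.55-fold, log2 fold change 2.92 ± 0.67 SE; edgeR adjusted p = 0.0239). Akr1cl, beside it, was at 0.530 and 0.276 against 1.63 and 0.690 CPM and did not pass (edgeR adjusted p = 0.118), except without U0126 replicate 2 (0.0265, with 0.489 the highest). At the other end, Akr1e2, which reduces anhydrofructose, was at 2.65 and 2.48 against 3.95 and 5.14 CPM (1.77-fold; edgeR adjusted p = 0.0454). The Akr1c14 log2 fold change went to 3.97 and 2.28 when control replicate 1 or 2 was left out and to 2.26 when U0126 replicate 1 was, and its call was lost in each (edgeR adjusted p = 0.0557, 0.160 and 0.0753, against 0.00469 at the lowest). Akr1e2 lost its call in 7 of 11 alternatives (adjusted p from 0.0122 to 0.282 by edgeR, DESeq2 or limma).

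Transferases of glucuronic acid and sulfate were few. The 1 glucuronosyltransferase and the 2 sulfotransferases that were tested rose, where 8.41% of all tested genes rose. The sulfotransferases counted but not tested, Sult2b1 and Sult6b1, had counts in the controls and none with U0126. The row named Ugt1a5 (chromosome 9, 95161157 to 95302822, plus strand) was the single glucuronosyltransferase of 8 with any count. It was at 11.9 and 12.0 CPM in the controls and 24.5 and 17.5 CPM with U0126, higher in both treated libraries (1.76-fold, log2 fold change 0.82 ± 0.18 SE; edgeR adjusted p = 0.0193). Ugt1a isoforms share their last exons, so the value cannot be assigned to a single isoform. Sult1a1, the phenol sulfotransferase, was at 0.857 and 0.345 against 2.69 and 1.93 CPM (3.87-fold; edgeR adjusted p = 0.0288). Sult5a1 was at 3.50 and 3.06 against 6.14 and 5.30 CPM (1.74-fold; edgeR adjusted p = 0.0317). The Ugt1a5 and Sult5a1 calls were lost with either control left out (edgeR adjusted p = 0.136 and 0.138, and 0.151 and 0.254; at the lowest 2.51e-04 and 0.0110), and that of Sult5a1 also under DESeq2 (0.0691). For Sult1a1 the call was lost without control replicate 2 (0.173, log2 fold change 1.43) or U0126 replicate 1 (0.0548), and the log2 fold change was 2.73 without control replicate 1, with 0.0104 the lowest p over its alternatives by edgeR, DESeq2 or limma.

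**Figure D3:**
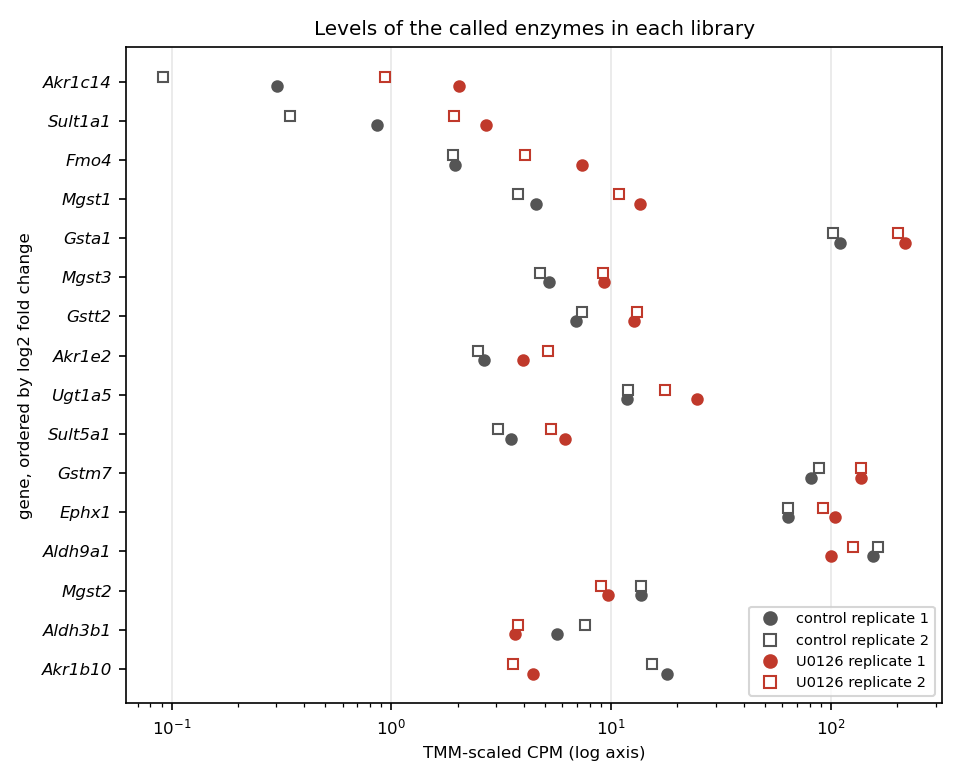
TMM-scaled CPM of called enzyme genes in each of the 4 libraries, on a log axis, ordered by log2 fold change; grey marks the controls, red the U0126 libraries, and the symbol gives the replicate. Gsta1 lies between 102 and 110 CPM in the controls and between 201 and 217 CPM with U0126, while Fmo4 and Ugt1a5 show a wider gap between the treated libraries than between the controls.

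Of the epoxide hydrolases, Ephx1 rose. This microsomal enzyme, which turns epoxides into diols, was at 63.5 and 63.5 CPM in the controls and 104 and 91.6 CPM with U0126 (1.54-fold, log2 fold change 0.62 ± 0.10 SE; edgeR adjusted p = 0.00559). Leaving out either control ended the call (edgeR adjusted p = 0.0779 and 0.0809, with 1.88e-05 the lowest over its alternatives). Ephx2, the soluble enzyme that hydrolyses fatty acid epoxides, had 9 and 22 control counts and 28 and 10 under U0126, with overlapping groups. Ephx3 and Ephx4 had no count.

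Flavin monooxygenases oxidise nitrogen and sulfur in small molecules. Fmo4 was at 1.94 and 1.91 against 7.33 and 4.06 CPM, above the controls in both treated libraries, though these differ from each other (2.96-fold; edgeR adjusted p = 0.0140), and its call was lost without either control (0.0960 and 0.105, with 1.91e-04 the lowest over its alternatives). Fmo1 was at 0.857 and 0.414 against 1.95 and 1.16 CPM and did not pass (edgeR adjusted p = 0.110), except without U0126 replicate 2 (0.0393, with 0.493 the highest). Fmo4 (80685325 to 80703615) and Fmo1 (80712882 to 80745347) are neighbours on the minus strand of chromosome 13. Fmo2 had 0 counts in 3 libraries and 18 in U0126 replicate 1, and Fmo6 had none. Fmo5, which lies on chromosome 2, was at 1.29 and 2.85 against 2.00 and 1.93 CPM, with overlapping groups. Both Fmo1 and Fmo4 had their highest level in U0126 replicate 1.

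Neighbouring members did not always share a call. Mgst3, which rose, and Aldh9a1, which fell, lie 4.0 kb apart on chromosome 13, with Aldh9a1 (85580828 to 85597493) on the plus and Mgst3 (85601499 to 85622314) on the minus strand, so that their 3' ends face each other. In the theta cluster on chromosome 20 (13760810 to 13825475), Gstt2 rose, while Gstt1, at 4.11 and 6.29 against 8.99 and 6.16 CPM, and Gstt3, at 1.29 and 1.17 against 0.923 and 1.16 CPM, did not pass, and Gstt4 had no count. These differences between neighbours were not tested.

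Members that were counted but not tested add a few low values. Sult2b1, a cholesterol sulfotransferase, had 10 and 7 counts in the controls and 0 in both U0126 libraries (ratio 0, 95% exact interval 0 to 0.272, counting error only). Akr1c12 had 22 and 11 against 6 and 0 counts (ratio 0.204, 95% exact interval 0.0699 to 0.493, counting error only). Akr7a3 had 8 counts in every library. The other 6, apart from Fmo2, were Gsta3, Gstm3, Gstm6, a Gstm6l row, Akr1c13 and Sult6b1, each with at most 8 counts in all. Of the 32 without a count, 7 lie in a cluster on chromosome 14 (22091777 to 22825444) that holds Sult1b1, Sult1d1, Ugt2a1 and 4 Ugt2b genes.

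Genes that supply or follow these enzymes were read from 7 lists. Of 103 distinct genes tested, 17 rose and 10 fell. That is 26.2% called (16.5% higher and 9.71% lower), against 19.9% of all tested genes (8.41% and 11.5%). The share called was 17.4% in glutathione synthesis and recycling, 22.2% in donor supply and 13.3% in xenobiotic sensors. It was 35.7% in retinoid handling, 33.3% in P450s and electron donors, 27.8% in other phase 2 enzymes and 40% in the efflux list. These shares were not tested. Of the 17 that rose, Cyp1a1, Hpgd and Rbp4 reached the filter's level in both U0126 libraries and in 0 controls. They could be tested because of their treated level. Crabp1, which fell, reached it in 2 controls and 1 U0126 library, so it could be tested because of its control level. In glutathione synthesis and recycling, 2 of 23 rose and 2 fell. Dpep1, which cleaves the dipeptide left by glutathione breakdown, was at 35.7 and 37.0 CPM in the controls and 88.9 and 88.4 CPM with U0126 (2.44-fold). Chac1, which degrades glutathione, rose 1.60-fold, and Glrx, glutaredoxin, fell 2.42-fold, from 25.9 and 25.2 CPM to 10.8 and 10.2 CPM. Gss, glutathione synthetase, named after its values were seen, was the other to fall (1.69-fold), a call lost without either control. The rate-limiting ligase subunits Gclc and Gclm did not pass (log2 fold change 0.22 and -0.08). Among 9 genes of donor supply for glucuronidation and sulfation, 2 rose and 0 fell: Papss2, which makes the sulfate donor, rose 1.54-fold and the sulfatase Arsb 1.47-fold, while Ugdh, which makes UDP-glucuronic acid, was at a log2 fold change of -0.16. In this list 0 were lower at an unadjusted p under 0.05 by edgeR, and DESeq2 called 0 lower.

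In retinoid handling, 4 of 14 fell and 1 rose. Crabp1 and Crabp2, the cytosolic retinoic acid carriers, fell 7.34-fold and 2.40-fold, and the retinol dehydrogenase Rdh5 fell 2.94-fold. Cyp26b1, which degrades retinoic acid, fell 2.11-fold. Rbp4, the carrier of retinol in blood, rose from 0 counts in the controls to 36 over the U0126 libraries. With the 36 taken as exact, the Rbp4 rise was 13.5-fold against a floor of 3 counts over the control group. Both were named after their values were seen and lost their calls without either control, and Cyp26b1 also under DESeq2 (adjusted p up to 0.195 and 0.116, with 0.0159 and 0.00584 the lowest over their alternatives by edgeR, DESeq2 or limma). The levels were low: Crabp1 was at 4.31 and 2.83 CPM in the controls and 0.738 and 0.221 CPM with U0126. Its log2 fold change of -2.88 went to -3.99 without U0126 replicate 1 and -2.27 without U0126 replicate 2, and the call was lost without control replicate 1 (edgeR adjusted p = 0.0786).

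Of 15 tested cytochrome P450s and electron donors, 3 rose and 2 fell. Those that fell were Cyp2s1 (2.20-fold) and Por (log2 fold change -0.41 to -0.29 over its alternatives), both named after their values were seen. Both calls were lost without either control, and that of Por also with the replicate block. Cyb5r3, a cytochrome b5 reductase, rose 1.39-fold. Cyp1b1 was at 696 and 681 CPM in the controls and 2718 and 3017 CPM with U0126 (4.16-fold). Cyp1a1 had 0 counts in the controls and 120 over the U0126 libraries. With the 120 taken as exact, the Cyp1a1 rise was 44.9-fold against a floor of 3 counts over the control group. Among other phase 2 enzymes, 4 of 18 rose and 1 fell, with the quinone reductase Nqo1 4.11-fold higher (293 and 306 against 1309 and 1159 CPM) and the arylamine acetyltransferase Nat1 1.82-fold higher. Hpgd, which breaks down prostaglandins and is given outside the rule for names, had 3 and 0 control counts and 25 and 16 under U0126. Ddah1, which degrades methylated arginine, fell 3.81-fold. The efflux list also holds genes that are not export pumps, among them Abcc9, a potassium channel subunit, and the prostaglandin transporter Slco2a1. Of its 10 tested genes, 3 rose: Abcc9 (4.24-fold), Abcb1a (2.30-fold) and Abcc4 (1.66-fold). Slco2a1 was the 1 that fell (2.28-fold, named after its values were seen). Of 15 xenobiotic sensors and partners, 2 rose and 0 fell: Ahrr, the repressor of the aryl hydrocarbon receptor (5.90-fold), and Tiparp (4.59-fold). Nfe2l2, which encodes NRF2, and Ahr were at log2 fold changes of 0.28 and -0.25 and did not pass (edgeR adjusted p = 0.0643 and 0.384). Of these sensors, 1 was lower at an unadjusted p under 0.05 by edgeR, and DESeq2 called 0 lower. Of the named genes of the 7 lists, Papss2, Arsb, Cyb5r3, Rdh5, Crabp2 and Abcc4 lost their calls without either control, and Chac1, Nat1 and Crabp1 without control replicate 1. Slco2a1 lost its call without either control and under DESeq2, and its log2 fold change ran from -1.83 without U0126 replicate 2 to -0.74 without U0126 replicate 1. Hpgd lost its call in 5 of 10 alternatives: with no filter, with the replicate block, without either control and without U0126 replicate 1, with log2 fold changes from 2.81 to 7.44.

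**Figure D4:**
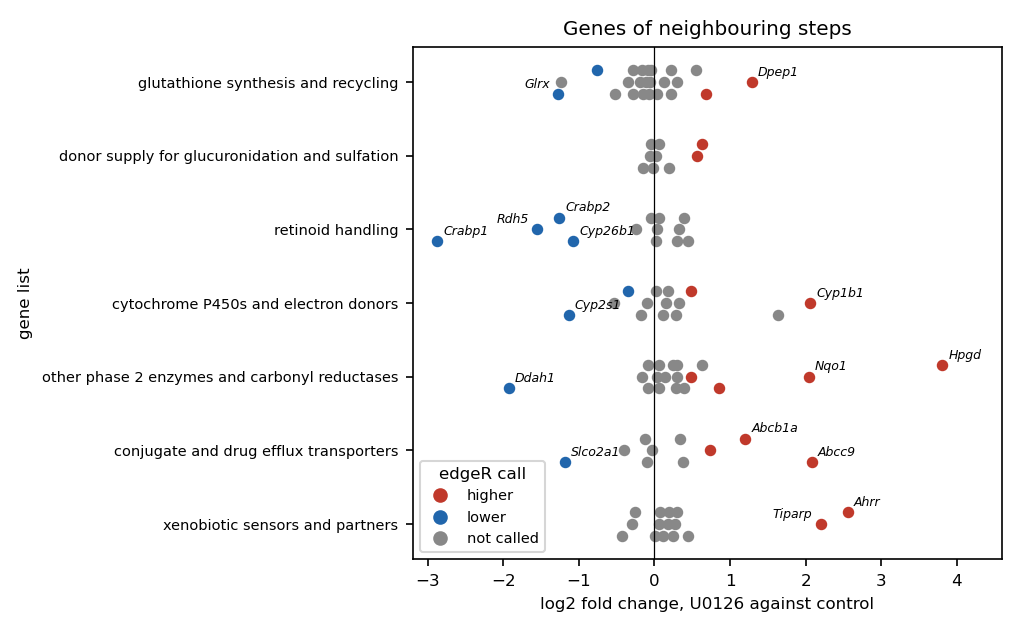
Log2 fold change of U0126 against control for the tested genes of the 7 related lists that had counts in the controls, with 1 point per gene coloured by its edgeR call. Hpgd, Cyp1b1, Nqo1, Abcc9, Ahrr and Tiparp lie above 2 on the log2 scale, Crabp1 is the lowest at -2.88, and Cyp1a1 and Rbp4, with 0 counts in the controls, are not drawn.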

How the data were processed

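RNA-seq libraries of rat TSPCs were compared between 2 control (DMSO) and 2 U0126 samples. The deposited table holds, per the file headers, read counts and TPM values per gene for each library; for the authors' aligner, counter, annotation and strand setting: not given in the sources used here; the genome build is rn6 per the submitters' processing notes. Of per-sample columns, 0 were left unmatched to a label.

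The deposited counts were tested for the whole table with edgeR 4.0.16 (R 4.3.3; quasi-likelihood F test, two-sided, TMM scaling, filterByExpr at its defaults, 10 counts and 15 in total, Benjamini-Hochberg adjustment over 14023 genes, threshold 0.05). On simulated data of the same size with 200 changed genes, 13.2% of the calls fell on unchanged genes. That is a larger share than the threshold of 0.05 allows for. The deposited data gave 2792 calls, so the simulated share need not carry over to them. CPM values are TMM-scaled counts times 1e6 over the library size, fold changes come from the edgeR fit, and the authors' deposited TPM served to compare levels between genes. Intervals and floors (3 counts) cover counting error only. DESeq2 1.42.0, limma 3.58.1 (voom), other scalings and filters, a replicate block and leaving out each library were alternatives.

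Genes named are the called enzymes, the 3 most abundant tested per class, uncalled ones with an unadjusted p under 0.05, untested ones with at least 10 counts, and the 3 called genes with the smallest adjusted p per related list; others that are named were added after their values were seen. Members and lists were chosen with earlier results of these data known. A planned comparison of protein identity within classes was not run, as protein sequences were not used here. Promoter windows are RefSeq's for GRCr8; 21 of the 90 genes had no match by symbol. A gene is counted in the totals but not reported here by name.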

Additional observations from a re-analysis of the deposited data

How the results depend on the processing

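With all 4 libraries kept, the alternatives (RLE size factors, library totals, no filter or a stricter one, DESeq2, limma-voom, the replicate block) gave between 11 and 13 enzymes higher, against 13, and 4 lower, against 4; the related lists gave 15 to 17 higher, against 17, and 10 to 11 lower, against 10. Leaving out each library in turn gave 4 to 18 enzymes higher and 1 to 5 lower, and 8 to 23 related genes higher and 2 to 17 lower. The lowest counts came without a control, though all of these fits have the same number of libraries. Replicates differed by a chi-square per degree of freedom of 15.5 in the controls and 46.2 with U0126. The cause of the differences between these fits was not tested. Of the 17 enzyme calls, 4 were kept in every alternative and 13 were lost in at least 1. Of the 48 tested enzymes, 11 changed direction in at least 1 alternative, of which 0 had been called. With all libraries kept these were 3: Aldh2 and Aldh3a2 with library totals and Fmo5. Log2 fold changes turned for Aldh2 (-0.044 with library totals, and -0.062 to 0.082 over the fits without a library), Aldh3a2 (-0.012 with library totals), Fmo5 (0.019 with limma-voom, 0.016 with the replicate block, -0.535 to 0.612 without a library) and Ephx2 (-0.412 to 1.151 without a library); Gsta2, Gsta4, Gsta5, Gstk1, Aldh1a3, Aldh1l2 and Aldh5a1 turned in fits without a library. The labels do not say that a replicate number marks a shared source, and same-numbered libraries did not deviate together (correlation -0.03 across 14023 genes); the replicate block gave 12 enzymes higher and 4 lower, and 16 and 10 related genes.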
